A study of Homo sapiens with 4 samples.

Results

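The promoters described here are those of the human J protein, HSP70 and HSP90 chaperone genes. They were taken by gene symbol (DNAJA, DNAJB or DNAJC with a number, HSPA with a number, HSP90AA1, HSP90AB1 and HSP90B1) from an ATAC-seq table with 1 row per gene, which gave 63 of 28775 promoters. They comprised 45 J proteins, 15 HSP70 genes and 3 HSP90 genes. The group was selected on a measured value of 1 promoter, DNAJB14, whose accessibility was higher in the MORC2 knockout. DNAJB14 is therefore described without a test, and the counts it enters are given without it too.

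The cells were HEK293T, an established line from human embryonic kidney, and ATAC-seq read how often the Tn5 transposase could insert into their DNA. Wild-type (WT) cells and MORC2 knockout (KO) cells gave 2 libraries each, and the labels name no other allele or agent. MORC2 is a GHKL-type ATPase that acts with the HUSH silencing complex, and the comparison asks whether its loss alters accessibility. Each KO library came from a separate bulk pool of cells electroporated with Cas9 and a different guide RNA, so guide and KO replicate cannot be told apart, and the pools were not clones. Western blotting, not these libraries, was the study's check of the knockout. Because p-values rest on 2 against 2 libraries, they measure the spread between those libraries.

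HSP70 proteins bind and release unfolded stretches of other proteins in a cycle driven by ATP. J proteins bring substrates to HSP70 and start ATP hydrolysis, nucleotide exchange factors reset it, and HSP90 completes the folding of many signalling proteins. Each compartment has its own set: HSPA8 and the stress inducible HSPA1A in the cytosol, HSPA5 (BiP) in the endoplasmic reticulum (ER) and HSPA9 (mortalin) in mitochondria.

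Promoter sequences from RefSeq (GRCh38.p14) were matched to 55 of the 63 genes, and the 250 bases upstream of the most upstream start are shown, 5′ to 3′ on the strand of the gene, for the promoters on which the results turn. The first 5 belong to ER chaperones with higher accessibility in KO. HSPA5 and HSP90B1 are ER chaperones whose promoters hold the ER stress element, to which ATF6 and NF-Y are known to bind. Capitals mark matches on either strand to any of 8 motifs: the ER stress element (CCAAT and CCACG 9 bases apart), the heat shock element (3 GAA units of alternating orientation 2 bases apart, the site of HSF1), CCAAT (the NF-Y box), TGACGTCA (the cAMP response element), CCGGAAGT (an ETS site), CACGTG (an E box), TATAAA (the TATA box) and GGGCGG (the GC box). The stretches lie in DNAJB14 at chr4:99946619-99946868 (minus strand), HSPA13 at chr21:14383147-14383396 (minus strand), DNAJC3 at chr13:95676889-95677138 (plus strand), DNAJC10 at chr2:182716007-182716256 (plus strand), DNAJB9 at chr7:108569624-108569873 (plus strand), HSPA5 at chr9:125241344-125241593 (minus strand) and HSP90B1 at chr12:103930160-103930409 (plus strand).
DNAJB14: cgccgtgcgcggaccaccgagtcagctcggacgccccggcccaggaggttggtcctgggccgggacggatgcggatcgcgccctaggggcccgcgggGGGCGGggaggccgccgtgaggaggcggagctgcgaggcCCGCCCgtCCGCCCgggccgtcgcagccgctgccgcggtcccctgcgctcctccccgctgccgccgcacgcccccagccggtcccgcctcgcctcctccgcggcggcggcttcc
HSPA13: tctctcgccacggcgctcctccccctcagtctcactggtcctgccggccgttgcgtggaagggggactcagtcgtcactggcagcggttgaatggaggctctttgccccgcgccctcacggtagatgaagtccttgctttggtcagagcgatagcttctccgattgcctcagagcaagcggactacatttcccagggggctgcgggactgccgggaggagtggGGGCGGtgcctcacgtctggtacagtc
DNAJC3: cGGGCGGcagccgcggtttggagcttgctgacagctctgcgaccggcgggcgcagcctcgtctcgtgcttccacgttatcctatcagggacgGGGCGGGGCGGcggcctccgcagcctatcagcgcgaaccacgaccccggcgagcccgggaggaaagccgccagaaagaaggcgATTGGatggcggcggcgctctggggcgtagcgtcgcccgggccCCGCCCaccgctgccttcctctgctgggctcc
DNAJC10: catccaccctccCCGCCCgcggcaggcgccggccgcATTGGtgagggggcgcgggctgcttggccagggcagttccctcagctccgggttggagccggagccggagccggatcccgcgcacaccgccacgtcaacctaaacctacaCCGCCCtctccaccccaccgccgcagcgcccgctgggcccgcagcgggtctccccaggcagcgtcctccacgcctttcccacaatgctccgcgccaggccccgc
DNAJB9: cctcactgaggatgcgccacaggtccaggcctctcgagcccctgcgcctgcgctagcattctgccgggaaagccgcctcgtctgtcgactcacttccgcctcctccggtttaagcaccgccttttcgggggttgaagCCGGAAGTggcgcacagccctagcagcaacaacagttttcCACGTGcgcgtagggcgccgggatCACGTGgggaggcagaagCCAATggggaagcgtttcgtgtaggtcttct
HSPA5: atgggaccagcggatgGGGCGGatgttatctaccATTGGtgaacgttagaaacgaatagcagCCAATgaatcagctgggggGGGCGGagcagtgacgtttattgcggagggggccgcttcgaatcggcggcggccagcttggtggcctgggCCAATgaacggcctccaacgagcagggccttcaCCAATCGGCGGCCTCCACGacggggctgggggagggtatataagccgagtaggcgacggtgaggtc
HSP90B1: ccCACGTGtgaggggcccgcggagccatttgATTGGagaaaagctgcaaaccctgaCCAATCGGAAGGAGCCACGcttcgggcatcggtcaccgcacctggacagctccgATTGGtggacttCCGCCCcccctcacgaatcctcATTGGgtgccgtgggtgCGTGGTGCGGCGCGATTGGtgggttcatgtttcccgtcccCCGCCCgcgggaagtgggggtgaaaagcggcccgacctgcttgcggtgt
The CCAAT box overlaps the ER stress element by construction. The ER stress element occurred once in HSPA5, from 66 to 48 bases before the start, and at 194 to 176 and 89 to 71 bases in HSP90B1. None of the first 5 promoters held it in these letters.

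The libraries held from 9435801 to 15152636 counts, of which 20.6% to 35.1% lay in mitochondrial rows, and KO replicate 2 had the highest total and the lowest mitochondrial share. Values are normalised counts (CPM, scaled by TMM) per promoter window. A promoter was called at an adjusted p under 0.05 (edgeR's quasi-likelihood test, Benjamini-Hochberg over 27647 tested promoters). All chaperone promoters but HSPA7 were tested. HSPA7, a pseudogene, had counts of 0 and 0 in KO and 2 and 0 in WT and was removed by the filter on low counts. Of the kidney markers, LHX1 lay at 17.9 to 20.4 CPM, above PTPRC, CD3E and ALB, markers of leukocytes, T cells and hepatocytes, at 1.11 to 2.87 CPM. PAX2, the other kidney marker, was low, at 5.86 to 7.89 CPM.

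In WT cells the chaperone promoters were mostly open: their median was 36.8 CPM, against 16.7 CPM over all tested promoters, and 47 of 62 lay above that median. DNAJB4, a stress inducible cytosolic J protein, was highest, at 106 and 111 CPM in WT replicates 1 and 2. Next came the ER chaperones HSP90B1 (GRP94) at 99.3 and 102 CPM and HSPA5 at 91.8 and 88.7 CPM. HSPA13, an HSP70 of the ER without the usual substrate domain, followed at 88.7 and 83.1 CPM, and DNAJC3 (p58IPK), a partner of BiP, at 89.5 and 82.1 CPM. The order is a coarse one, since the ranges over both WT libraries overlapped for 45 of 61 pairs of adjacent promoters.

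The lowest levels were at promoters of genes known for use in testis and at HSPA1A. DNAJB3 had 1.66 and 2.88 CPM in WT replicates 1 and 2. HSPA1A had 3.74 and 2.99 CPM, as did the neighbouring HSPA1L, a testis HSP70, at 3.74 and 3.21 CPM, and DNAJB7 at the same values as HSPA1L. DNAJC5B, a relative of the cysteine string protein, had 3.22 and 3.88 CPM. All 8 promoters of the testis group lay between 1.66 and 8.97 CPM in WT. The highest mean was 47.7 times the lowest, and at 4 promoters 1 WT library exceeded the other by over 1.5 times, the widest gap being at DNAJC15 (2.39 and 5.87 CPM).

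**Figure D1:**
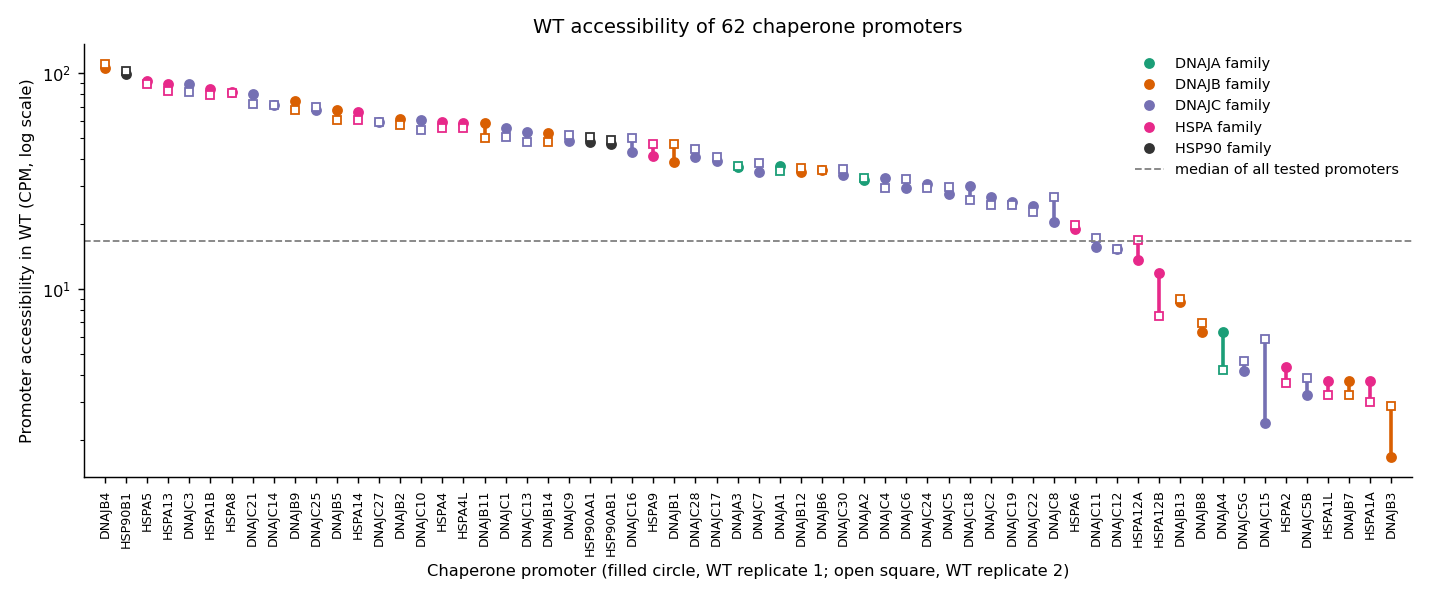
Accessibility of the 62 tested chaperone promoters in WT (CPM, log scale), ordered by mean, with a circle for WT replicate 1 and a square for WT replicate 2, coloured by family. Levels run from DNAJB4 at 106 and 111 CPM to DNAJB3 at 1.66 and 2.88 CPM, and 47 promoters have a mean above the dashed median of all tested promoters, 16.7 CPM.

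HSPA1A and HSPA1B encode nearly the same stress inducible HSP70, yet their promoters had very different counts. At HSPA1A the KO replicates 1 and 2 had counts of 39 and 62, and the WT replicates 36 and 27. At HSPA1B the counts were 917 and 1408 in KO and 813 and 714 in WT. The 2 upstream stretches are shown because they are so alike: 277 of 299 aligned bases, 92.6%, were identical over the 300 bases around the starts. They lie in HSPA1A at chr6:31815293-31815542 (plus strand) and HSPA1B at chr6:31827488-31827737 (plus strand), with the CCAAT, TATA and GC boxes in capitals.
HSPA1A: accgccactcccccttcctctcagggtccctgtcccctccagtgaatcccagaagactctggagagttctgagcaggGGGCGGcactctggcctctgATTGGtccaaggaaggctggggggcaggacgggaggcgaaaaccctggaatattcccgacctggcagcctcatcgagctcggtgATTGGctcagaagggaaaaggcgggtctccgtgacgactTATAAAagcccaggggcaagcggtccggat
HSPA1B: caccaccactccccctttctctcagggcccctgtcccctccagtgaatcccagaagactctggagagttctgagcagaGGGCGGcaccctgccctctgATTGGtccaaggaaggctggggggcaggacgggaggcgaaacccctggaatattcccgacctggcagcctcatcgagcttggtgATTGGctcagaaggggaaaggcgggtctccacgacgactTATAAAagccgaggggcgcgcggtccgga
Reads with a mapping quality under 30 had been discarded before counting, and reads that fit both copies can be lost or placed at 1 of them. How far that set the gap between the copies was not tested, so both values are uncertain. HSPA1L, next to HSPA1A in gene order, had counts within 6.90% of it in every library.

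At DNAJB14, a J protein of the ER membrane that works with cytosolic HSC70 in degradation of ER proteins, accessibility was 62.6 and 75.2 CPM in KO replicates 1 and 2 and 52.5 and 48.1 CPM in WT replicates 1 and 2. These rest on 683, 1282, 506 and 434 fragments. Neither WT value reached either KO value, KO replicate 2 was the highest, and the fitted log2 fold change was 0.47 (SE 0.070). This is the value that chose the promoter. The fold change was between 0.40 and 0.60 with other scalings, filters and fits on all libraries, and fell to 0.32 without KO replicate 2. The adjacent genes changed less: LAMTOR3 had a log2 fold change of 0.18 (SE 0.099) and H2AZ1 0.15 (SE 0.063), and neither was called. In at least 1 library their counts differed from those of DNAJB14 by 65.4% and 44.2%, though partly shared windows were not tested for. The upstream stretch of DNAJB14 shown above held 3 GGGCGG boxes, no CCAAT box, and within its 300 bases 45 CpG sites, the highest number among the 55 chaperone promoters (median 24).

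Of the 62 tested chaperone promoters, 6 were called (9.68%) and all 6 were higher in KO, while without DNAJB14 the count was 5 of 61 (8.20%). Over all tested promoters 4.45% were called, 3.45% higher and 0.995% lower in KO. Besides DNAJB14 the promoters that rose were HSPA13, DNAJC3, DNAJC10, DNAJB9 and HSPA4L, by 0.22 to 0.29 on the log2 scale. No chaperone promoter was called lower with all 4 libraries (edgeR's quasi-likelihood test). By the same test 16 of 62 had an unadjusted p under 0.05 in either direction (15 of 61 without DNAJB14). Over all tested promoters the count was 5626 of 27647. In bulk cells a change in the share of cells with an open promoter and a change in openness per cell cannot be told apart. The calls depended on single libraries and on the scaling: 6 without KO replicate 1, 0 without KO replicate 2, 9 without WT replicate 1 (7 higher, and DNAJB3 and DNAJC16 lower), 1 without WT replicate 2 (DNAJB14 itself), and 0 with total counts as library sizes or with DESeq2's Wald test. With offsets fitted by loess on abundance 3 were called, or 2 without DNAJB14: HSPA13 higher and DNAJC16 lower.

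HSPA13 accessibility was 103 and 107 CPM in KO replicates 1 and 2 and 88.7 and 83.1 CPM in WT replicates 1 and 2, from 1119, 1833, 854 and 750 fragments. Its log2 fold change was 0.29 (SE 0.063, adjusted p = 0.00099), the largest among the chaperone promoters after DNAJB14. The genes on either side, ABCC13 and SAMSN1, had counts up to 97.1% and 98.6% lower in a library and were not called. The HSPA13 stretch held a single GGGCGG box.

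DNAJC3 accessibility was 100.0 and 103 CPM in KO and 89.5 and 82.1 CPM in WT, again with no overlap. Its log2 fold change was 0.25 (SE 0.063, adjusted p = 0.0085). The row of the divergent transcript DNAJC3-DT had counts within 0.826% in every library, so the 2 rows are read as 1 observation. DNAJC10 (ERdj5), an ER disulfide reductase that helps to unfold proteins for degradation, had 67.3 and 69.3 CPM in KO and 61.0 and 54.7 CPM in WT. It rose by 0.24 (SE 0.068, adjusted p = 0.019), and its neighbours FRZB and PDE1A, with counts up to 85.8% and 92.2% lower in a library, were not called.

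DNAJB9 (ERdj4), which delivers misfolded ER proteins to degradation and restrains the stress sensor IRE1, had 82.3 and 83.6 CPM in KO and 74.4 and 67.3 CPM in WT. It rose by 0.23 (SE 0.065, adjusted p = 0.022), and THAP5, whose counts were within 0.493%, rose with it. Its stretch held CACGTG at 2 places, CCGGAAGT and CCAAT. HSPA4L, an HSP110-type nucleotide exchange factor of the cytosol, had 64.5 and 68.8 CPM in KO and 58.8 and 55.7 CPM in WT. Its log2 fold change of 0.22 (SE 0.068, adjusted p = 0.032) was the weakest of those called, and PLK4, whose counts were within 15.8%, had 0.10 (adjusted p = 0.39). The first promoter past the threshold was that of DNAJC18, an ER membrane J protein related to DNAJB14, at 32.7 and 34.2 CPM in KO and 30.1 and 25.9 CPM in WT (0.26, SE 0.088, adjusted p = 0.062).

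**Figure D2:**
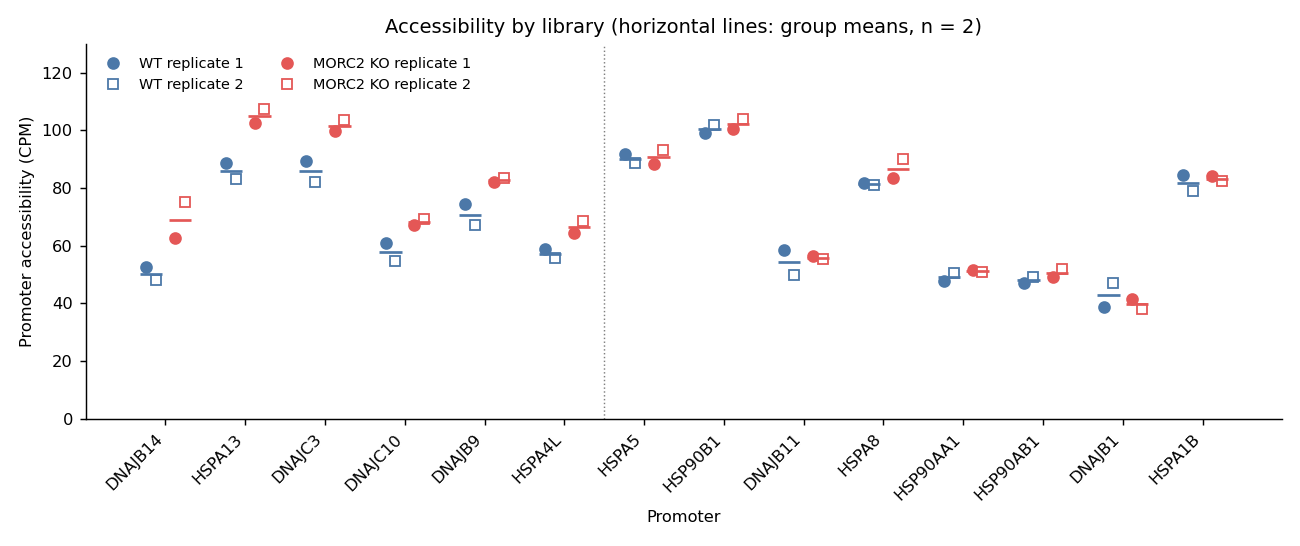
Accessibility (CPM) in each of the 4 libraries for DNAJB14 and the 5 other called promoters (left of the dotted line) and for 8 chaperone promoters not called (right). Circles are replicate 1, squares replicate 2, and horizontal lines the means of 2 libraries. Left of the line both KO values exceed both WT values, as at DNAJB14 with 62.6 and 75.2 against 52.5 and 48.1 CPM.

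Of the 6 called promoters, 5 belong to the 14 genes whose proteins work in the ER or its membrane (4 of 13 without DNAJB14), and 1 to the 48 other tested promoters. Both lists are textbook groupings drawn up with results of these data known. In the ER group 13 of 14 log2 fold changes were above 0 (12 of 13 without DNAJB14), with a median of 0.14 (0.12 without DNAJB14) against -0.017 over all tested promoters. At 10 of the 14 (9 of 13 without DNAJB14) both KO values exceeded both WT values, against 25.2% of all tested promoters. Most of the group lay at 50 CPM or more, where that share was 52.9% of all promoters and 8 of 11 in the ER group (7 of 10 without DNAJB14). The median was 0.27 with total counts (0.25 without DNAJB14), where that of all promoters moved to 0.12. With loess offsets it was 0.066 (0.049 without DNAJB14), and 9 of 14 values were above 0 (8 of 13 without DNAJB14). The ER calls fell to 0 with total counts and with DESeq2's Wald test, and also depended on which library was left out. With loess offsets they fell to 3: DNAJB14 and HSPA13 higher and DNAJC16 lower.

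The best known ER chaperones were not among those that rose. HSPA5 had 88.5 and 93.3 CPM in KO and 91.8 and 88.7 CPM in WT, with a log2 fold change of 0.014 (SE 0.063). HSP90B1 had 100.4 and 104 CPM in KO against 99.3 and 102 CPM in WT, and 0.026 (SE 0.062). DNAJB11 (ERdj3), a secreted partner of BiP, had 56.3 and 55.4 CPM in KO and 58.7 and 49.9 CPM in WT, and 0.036 (SE 0.070). At HSPA5, HSP90B1 and DNAJB11 the libraries of the 2 genotypes overlapped. The counts of HSP90B1 were within 0.217% of those of the TTC41P row in every library, and those of DNAJB11 within 1.53% of TBCCD1. The values at HSP90B1 and DNAJB11 therefore cannot be assigned to these genes alone. The remaining members, DNAJC1, DNAJC25, DNAJB12 and DNAJC14, had log2 fold changes of 0.071 to 0.16 and were not called. DNAJC16 was the exception in sign, at 40.4 and 40.9 CPM in KO and 43.0 and 50.2 CPM in WT (log2 fold change -0.19, SE 0.075, adjusted p = 0.11). The adjacent CASP9 row had counts within 18.2% of those of DNAJC16 in every library. By edgeR's quasi-likelihood test CASP9 was called lower (-0.30, SE 0.072, adjusted p = 0.0044). Whether the 2 rows share fragments was not tested.

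Of the 8 promoters of mitochondrial chaperones 0 were called by edgeR, and 0 had an unadjusted p under 0.05. Their median log2 fold change was -0.12, with 7 of 8 below 0, against -0.017 over all tested promoters. With total counts it was 0.014, where 4 of 8 were below 0 and the median of all promoters moved to 0.12. With loess offsets it was -0.15, again with 7 of 8 below 0. HSPA9, the mitochondrial HSP70, had 40.4 and 42.7 CPM in KO and 41.4 and 46.7 CPM in WT (log2 fold change -0.078, SE 0.076). DNAJA3 (TID1), its J protein, had 35.3 and 34.0 CPM in KO and 36.9 and 37.3 CPM in WT (-0.10, SE 0.082). DNAJC19, which with DNAJC15 belongs to the import motor of the inner membrane, was the member above 0, at 0.12 (SE 0.095).

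Of the 5 vesicle and endosome promoters 0 were called and 0 had an unadjusted p under 0.05, among them DNAJC6 (auxilin), which uncoats clathrin vesicles, at 0.029 (SE 0.087) and DNAJC5 (cysteine string protein) at -0.050 (SE 0.091). The 5 promoters for ribosome, nucleus and splicing had a median of 0.086, with 0 called and 1 at an unadjusted p under 0.05. The largest value there was at DNAJC17, a splicing J protein, with 47.9 and 42.7 CPM in KO and 39.3 and 41.0 CPM in WT (0.16, SE 0.076, adjusted p = 0.20). DNAJC9, a J protein that also handles histones H3 and H4, had 0.077 (SE 0.072).

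Stress inducible promoters did not pass the test in either direction (0 of 7, and 0 at an unadjusted p under 0.05), and their median of 0.025 became -0.0057 with loess offsets. DNAJB1, the major inducible J protein, had 41.6 and 37.9 CPM in KO and 38.8 and 47.0 CPM in WT (-0.12, SE 0.077). HSPA6, an HSP70 found mainly after strong stress, had 19.2 and 19.9 CPM in KO and 18.9 and 19.7 CPM in WT (0.021, SE 0.11). HSPA1B at 0.025 (SE 0.064), DNAJB4 at 0.084 (SE 0.062), HSPA1A at 0.097 (SE 0.25) and DNAJA4 at 0.00 were also not called. No SE is given for DNAJA4, since an SE derived from the F statistic is unreliable at a fold change so near 0. The standard error of HSPA1A is so wide that changes of the size seen at DNAJB14 were not detectable there.

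All 3 HSP90 promoters had log2 fold changes between 0.026 and 0.076, 0 were called and 0 had an unadjusted p under 0.05, and HSP90AA1 and HSP90B1 fell below 0 with loess offsets (-0.010 and -0.062). HSP90AA1, the inducible cytosolic form, had 51.6 and 50.9 CPM in KO and 47.8 and 50.6 CPM in WT. The counts of HSP90AA1 were within 0.354% of those of the WDR20 row in every library, so they cannot be assigned to HSP90AA1 alone. HSP90AB1, the constitutive form, had 49.2 and 51.8 CPM in KO and 47.0 and 49.2 CPM in WT. Among the cytosolic HSP70 genes, HSPA8 had 83.6 and 90.1 CPM in KO and 81.8 and 81.2 CPM in WT (0.097, SE 0.064, adjusted p = 0.39). HSPA4, a nucleotide exchange factor related to HSPA4L, had 0.12 (SE 0.069, adjusted p = 0.32), and HSPA14, which works at the ribosome with DNAJC2, 0.13 (SE 0.067, adjusted p = 0.25). HSPA14 had the same counts as the MSANTD7 row in every library. By family, 0 of 4 DNAJA, 2 of 13 DNAJB (1 of 12 without DNAJB14), 2 of 28 DNAJC and 2 of 14 HSPA promoters were called, against 4.45% of all tested promoters.

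**Figure D3:**
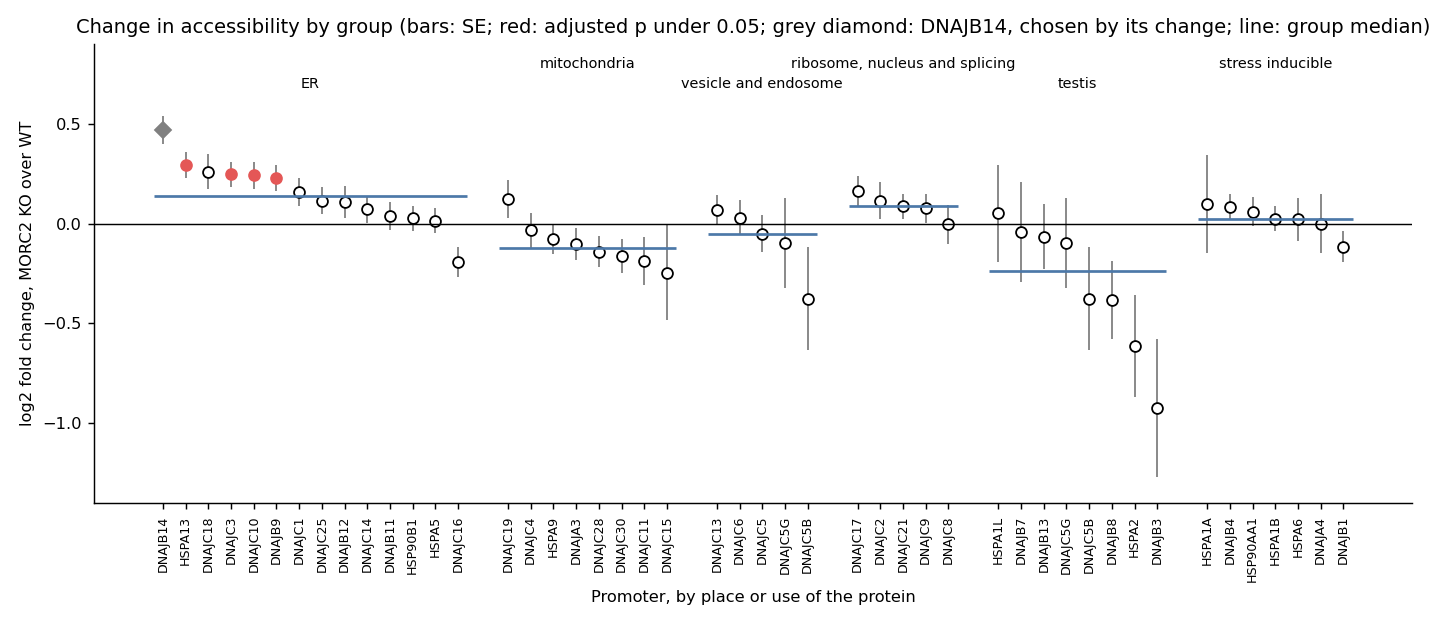
The log2 fold change of MORC2 KO over WT with its SE (bars) for chaperone promoters by place or use of the protein, with group medians as blue lines. The bar at DNAJA4 is unreliable, since its fold change is so near 0. Red points have an adjusted p under 0.05 (edgeR's quasi-likelihood test), open points do not, and the grey diamond is DNAJB14, chosen by this value. The ER group has a median of 0.14, the mitochondrial group -0.12 and the testis group -0.24, with the widest bars at the low testis promoters.

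The largest falls were at the promoters with the fewest fragments, and none passed the test with all 4 libraries. By edgeR 3 of 8 in the testis group had an unadjusted p under 0.05, against 1975 of 11880 promoters under 10 CPM. DNAJB3 had 1.19 and 1.17 CPM in KO and 1.66 and 2.88 CPM in WT (log2 fold change -0.93, SE 0.34, adjusted p = 0.095). HSPA2, an HSP70 needed in spermatogenesis, had 3.39 and 2.11 CPM in KO and 4.36 and 3.65 CPM in WT (-0.61, SE 0.25, adjusted p = 0.14). DNAJB8, another testis J protein, had 5.5 and 4.81 CPM in KO and 6.33 and 6.98 CPM in WT (-0.38, SE 0.20), and DNAJC5B had -0.38 (SE 0.26). HSPA12B, an atypical HSP70 of endothelium, had 8.07 and 7.62 CPM in KO and 11.8 and 7.53 CPM in WT (-0.32, SE 0.16), with overlap. At DNAJB3 and HSPA2 the log2 fold change was beyond 0.5 in size, which held for no other chaperone promoter. Without WT replicate 1 DNAJB3 was called lower (-1.28, adjusted p = 0.031) and without WT replicate 2 it had -0.49, while HSPA2 ran from -0.91 without KO replicate 1 to -0.24 without KO replicate 2. The whole testis group had a median of -0.24, which was -0.054 with loess offsets.

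Over all promoters the log2 fold change rose with the level of the promoter, and the chaperone promoters followed the same course. Under 10 CPM the median was -0.17 for 12 chaperone promoters and -0.22 for all 11880 tested. From 10 to 50 CPM it was 0.035 for 26 and 0.044 for 11227, and at 50 CPM or more 0.085 for 24 and 0.079 for 4540. With loess offsets, which remove this course, the median over the chaperone promoters was 0.0052 in place of 0.055. All 6 called promoters lay at 50 CPM or more, where 10.2% of all promoters were called higher in KO, against 6 of 24 chaperone promoters (25.0%), or 5 of 11 in the ER group and 1 of 13 outside it. Without DNAJB14 these counts were 5 of 23 and 4 of 10. The ER group's median level was 67.4 CPM, against 32.8 CPM for the chaperone promoters outside it, so its count is to be read against the 10.2%.

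**Figure D4:**
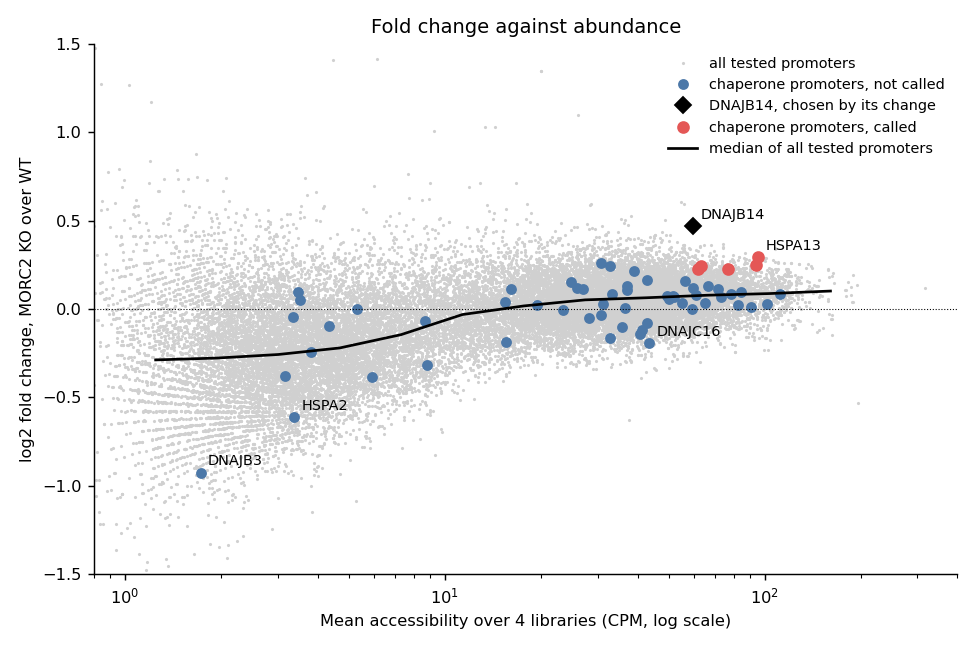
The log2 fold change of MORC2 KO over WT against mean accessibility over the 4 libraries (CPM, log scale) for all tested promoters (grey; 50 lie outside the axes) and the chaperone promoters (blue, not called; red, called; black diamond, DNAJB14). The black line, the median of all tested promoters, rises from below 0 at low levels, and the called chaperone promoters lie above it at 50 CPM or more.

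Across the 62 promoters both KO values exceeded both WT values at 24 (38.7%, or 23 of 61 without DNAJB14), against 25.2% of all tested promoters, and below both at 9 (14.5%), against 25.4%. These shares moved with level: both KO values were the higher ones at 0 of 12 chaperone promoters under 10 CPM (5.63% of all), 10 of 26 from 10 to 50 CPM (38.5% against 34.7%) and 14 of 24 at 50 CPM or more (58.3% against 52.9%). The values overlapped at 29. Over all 62, 43 log2 fold changes were above 0 (42 of 61 without DNAJB14) and 19 below, with a median of 0.055. Many of these rows had counts close to those of an adjacent gene. A neighbour in gene order lay within 25% of the count in every library at 31, and within 5% at 17. Counts at DNAJB4 were close to those of FUBP1 (within 0.390%), at DNAJA1 to APTX (within 0.836%) and at DNAJB1 to TECR (within 1.84%). Whether such rows share fragments was not tested.

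Genes of the same pathways that are not J proteins, HSP70 or HSP90 were counted in 2 lists. Of 58 other chaperones and co-chaperones, among them chaperonin subunits, BAG proteins and small heat shock proteins, 2 were called (3.45%), both higher, which is no more than the 4.45% called over all promoters, and the median was 0.015. SUGT1, a co-chaperone of HSP90, had 91.5 and 93.7 CPM in KO and 82.8 and 78.1 CPM in WT (log2 fold change 0.20, SE 0.064, adjusted p = 0.038). AHSA1, which speeds the ATPase of HSP90, had 79.1 and 86.1 CPM in KO and 72.6 and 72.0 CPM in WT (0.20, SE 0.065, adjusted p = 0.049). Both calls were lost with total counts, loess offsets, the DESeq2 Wald test, the replicate block, the edgeR 4 fit and a mean count of at least 50, and without KO replicate 2 or WT replicate 2. Of 20 unfolded protein response genes 1 was called (5.0%, near the 4.45% over all promoters), with a median of 0.021. It was EIF2AK3 (PERK), the ER stress kinase, at 109 and 112 CPM in KO and 97.2 and 93.9 CPM in WT (0.21, SE 0.062, adjusted p = 0.030), a call lost under the same alternatives. The other stress sensors, ERN1 (IRE1) at -0.15 (SE 0.088) and ATF6 at -0.094 (SE 0.075), and the factor XBP1 at 0.037 (SE 0.075), were not called.

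The promoter of the targeted gene was itself more accessible in the libraries labelled KO. MORC2 had 37.0 and 37.5 CPM in KO and 25.7 and 29.6 CPM in WT (log2 fold change 0.43, SE 0.087, adjusted p = 0.00028). The call was lost with total counts (adjusted p = 0.24), with the DESeq2 Wald test (adjusted p = 0.36) and without KO replicate 2 (adjusted p = 0.084). Counts at this promoter do not show whether the gene was disrupted, so they are no check of the labels.

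The sequences were searched for the elements for which chaperone promoters are known. The heat shock element lay within 4 of the 55 searched stretches (7.27%), against 0.435% of 19083 tested promoters with a sequence of the same 300 bases. These were DNAJA1, DNAJB6, HSPA6 and HSPA8, with log2 fold changes of 0.22, 0.13, 0.021 and 0.097, and none was called. The other stress inducible promoters, HSPA1A, HSPA1B, DNAJB1, DNAJB4, DNAJA4 and HSP90AA1, had no match. Only exact matches around the most upstream start were sought, so a missing match does not show that a gene lacks the element. The ER stress element lay in 2 (3.64%), HSPA5 and HSP90B1, against 0.0891%. HSPA8 is shown as the promoter with 2 heat shock elements, at 230 to 218 and 55 to 43 bases before its start in chr11:123062137-123062386 (minus strand).
HSPA8: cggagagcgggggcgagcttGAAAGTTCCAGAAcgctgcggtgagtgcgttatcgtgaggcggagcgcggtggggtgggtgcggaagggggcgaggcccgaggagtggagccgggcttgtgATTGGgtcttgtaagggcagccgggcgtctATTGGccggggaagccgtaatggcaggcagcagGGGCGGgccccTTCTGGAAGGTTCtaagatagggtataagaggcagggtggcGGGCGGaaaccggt
GGGCGG lay in 69.1% of the chaperone stretches against 54.2% of all, CCAAT in 45.5% against 36.0%, TATAAA in 12.7% against 10.0%, CACGTG in 10.9% against 8.25%, CCGGAAGT in 7.27% against 5.66% and TGACGTCA in 1.82% against 2.4%. Of the called promoters with a sequence, DNAJC3, DNAJC10 and DNAJB9 held CCAAT and DNAJB14, HSPA13 and HSPA4L did not. Their CpG counts ran from 21 in HSPA13 and HSPA4L to 45 in DNAJB14. Across the 55 promoters, which share libraries and base composition, CpG number and mean CPM had a Spearman rho of 0.36, given as a description only. DNAJB7, with 1 CpG site, was among the lowest in accessibility, but HSPA1A with 15 and HSPA2 with 21 were as low.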

How the data were processed

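ATAC-seq libraries of 2 WT and 2 MORC2 KO samples of HEK293T cells were analysed, which the study's methods describe as independent replicates. The authors used Trim Galore for trimming and bowtie2 for alignment to CHM13, discarded reads with a mapping quality under 30 and removed duplicates with Picard. The table the authors deposited holds raw counts per promoter, 1 row per gene ID, without normalisation. The submitters' processing notes name Subread 2.0.6. For its own test the study placed fragment midpoints in small adjoining windows with csaw and summarised them over promoters, defined as 2 kb around the gene start. Whether the deposited table was made in that way is not given in the sources used here, so equal promoter windows are assumed where levels of different promoters are compared. The study's own test reported far fewer differentially accessible genes in KO against WT than were called here over all promoters. Of 28775 IDs, 28763 were matched to symbols through RefSeq genes of GRCh38.p14. Peaks, on CHM13, were not used here.

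Counts were filtered with filterByExpr (1128 rows removed), scaled by TMM and tested by edgeR 4.0.16 (R 4.3.3, limma 3.58.1) with the legacy quasi-likelihood fit, without covariates, two-sided, with Benjamini-Hochberg adjustment over all tested rows. SEs were derived from the F statistics. The fit was tested on simulated data. Deviations of libraries with the same replicate number had a correlation of 0.018 over 19833 rows, so the numbers were not taken to pair libraries. PCR fragments without molecular identifiers are not independent molecules.

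The chaperone promoters, groups and gene lists were chosen with earlier results of these data known. Named are DNAJB14, every called promoter, the 5 highest and 5 lowest in WT, the 5 largest changes in each direction, those just inside and outside the threshold, the stress inducible, HSPA and HSP90 genes, rows sharing a window with a called promoter, called genes of the lists, and MORC2. Other members and adjacent rows were named after their values were seen, to show the makeup of each group. Alternatives were the scaling (size factors of DESeq2 1.42.0, total counts, loess offsets), the filter, the edgeR 4 and robust fits, the DESeq2 Wald test, a replicate block, the threshold, similar neighbours counted once, omission of mitochondrial rows and leaving out each library. The counts for the ER group, for promoters of 50 CPM or more and without DNAJB14 were added after seeing the data. Promoter sequences came from RefSeq, with the most upstream start per gene. A further cell type marker is not reported here.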

Additional observations from a re-analysis of the deposited data

How the results depend on the processing

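Precision rests on 2 libraries a group and is lower where counts are fewer. The SE of the log2 fold change was 0.34 at DNAJB3, the lowest promoter, and 0.062 at DNAJB4, the highest. With total counts as library sizes, which moved the median of all promoters from -0.017 to 0.12, and with the DESeq2 Wald test, 0 chaperone promoters were called (10 and 6 at an unadjusted p under 0.05), also 0 without DNAJB14, 0 in the ER group, 0 among the other chaperones and 0 among the unfolded protein response genes; the cause was not tested. Loess offsets gave 3, 2 without DNAJB14, 3 in the ER group and 0 in both gene lists. A mean count of at least 50 gave 3 without DNAJB14 and 0 in both lists, the edgeR 4 fit 0 in both lists, and no filter 1 among the other chaperones. An adjusted p under 0.1 gave 10. With the replicate block 4 were called (DNAJB9 and HSPA4L were lost), 3 without DNAJB14, 4 in the ER group and 0 in both lists, but the libraries share only a number. Leaving out each library gave 0 to 9 calls, 0 to 8 without DNAJB14, 0 to 7 in the ER group, 0 to 2 in each gene list, and a median log2 fold change of 0.041 to 0.084. That median was 0.19 with total counts and 0.0052 with loess offsets. In the 150 bases before the start alone, 30.9% of members held CCAAT, against 25.6% of all promoters. There 5.45% of members held TATAAA, against 6.30% of all. DESeq2 size factors, the robust fit, no filter and omission of mitochondrial rows each gave 6 calls. Signs turned at small, uncalled values: with total counts DNAJB1 (0.020), DNAJB7 (0.098) and HSPA9 (0.053), with loess offsets DNAJB4 (-0.0057), DNAJB7 (0.19), HSP90AA1 (-0.010), HSP90B1 (-0.062), HSPA1B (-0.059), HSPA5 (-0.071) and HSPA6 (-0.0020), at a mean count of at least 50 DNAJA4 (-0.035), HSP90B1 (-0.0086), HSPA1B (-0.010), HSPA5 (-0.021) and HSPA6 (-0.014), and without mitochondrial rows DNAJA4 (-0.00028). With each library left out the range crossed 0 for DNAJA4 (-0.26 to 0.33), DNAJB1 (-0.25 to 0.023), DNAJB7 (-0.43 to 0.19), HSPA12A (-0.11 to 0.20), HSPA12B (-0.60 to 0.052), HSPA1A (-0.049 to 0.27), HSPA1B (-0.020 to 0.074), HSPA1L (-0.050 to 0.17), HSPA5 (-0.023 to 0.066), HSPA6 (-0.0087 to 0.062) and HSPA9 (-0.16 to 0.010).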
